A study of Mus musculus with 4 samples.

Results

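Erythroid progenitor nuclei were studied among hematopoietic stem and progenitor cells (HSPCs) of mouse bone marrow, sorted as lineage-negative, cKit-positive cells and profiled by single-nucleus multiome sequencing. In each nucleus the assay read RNA, as unique molecular identifiers (UMIs), together with chromatin accessibility, as cuts made by a transposase (ATAC). The marrow came from young adult male C57BL/6 mice, pooled from several animals per group, either unligated (Ctrl) or bearing a silk ligature that induces periodontitis (Lig), and the study looked at day 14. There were 4 samples in 4 groups (RNA and ATAC, each for Ctrl and Lig), so a group held 1 sample and no replicates. The deposited barcodes end in suffix 1 or 2, which no label ties to Ctrl or Lig. They are called library 1 and library 2 here, belong to no group, and are not compared for ligature.

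A barcode was kept with 200 or more genes and 1000 to 50000 ATAC counts in peaks. A kept nucleus was counted as erythroid with 3 or more summed UMIs of 9 rule genes (Slc25a21, Kel, Ank1, Car1, Aqp1, Rhag, Gna14, Klf1 and Epor) and 2 or fewer of 5 megakaryocyte genes (Vwf, Trpc6, Rab27b, Med12l and Itga2b). This gave 174 of 13619 kept nuclei. They were 126 of 5905 in library 1 (2.13%, exact 95% interval 1.78 to 2.54) and 48 of 7714 in library 2 (0.622%, 0.459 to 0.824). All intervals here are 95% intervals that cover counting error alone, and nothing was tested, since 1 sample per group leaves no replicate spread. No nucleus passed the thresholds for both lineages, so the megakaryocyte limit removed none.

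Red blood cells arise from multipotent progenitors that share much of their early path with megakaryocytes and with mast cells and basophils. During commitment the factor GATA1 takes over from GATA2 and, with TAL1, its partner LDB1, the cofactor FOG1 (encoded by Zfpm1) and KLF1, switches on the genes of globin, heme synthesis, iron uptake and the red cell membrane. Erythropoietin, acting through its receptor and the kinase JAK2, keeps the committed progenitors alive, and the surface marker TER119, which belonged to the lineage cocktail of the sort, appears on the later erythroblasts.

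Peaks higher in these nuclei often held the letters that GATA factors bind, so 9 such elements of erythroid loci are shown. Each is 120 bases of the GRCm38 plus strand, 5′ to 3′, from the ATAC peak within 100 kb of a globin, heme, regulator or membrane gene that had the largest ratio over the other nuclei, among peaks 2-fold or more higher in both libraries with 12 or more pairs of counts in erythroid nuclei and such letters outside exons. The peaks of Hbb-bs, Alas2, Gata1, Car1 and Ermap fell under the minimum of 3 expected pairs used below for counts over peaks, and those of Hba-a1, Klf1 and Sox6 met it only with the erythroid counts included in the rate. The counts in the erythroid nuclei themselves thus bear on which elements are shown, and their ratios are a description. The capitals mark GATA cores (AGATAA or AGATAG or TGATAA or TGATAG, on either strand). Introns are those of GENCODE M21.
Hba-a1 (chr11:32245700-32245819, in an intron of Nprl3): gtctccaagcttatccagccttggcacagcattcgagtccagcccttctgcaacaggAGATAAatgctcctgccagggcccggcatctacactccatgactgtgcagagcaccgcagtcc
Hbb-bs (chr7:103870798-103870917, intergenic): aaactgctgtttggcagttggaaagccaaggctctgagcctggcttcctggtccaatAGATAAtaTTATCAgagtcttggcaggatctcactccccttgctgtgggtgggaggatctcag
Alas2 (chrX:150564794-150564913, in introns of Alas2 and Apex2): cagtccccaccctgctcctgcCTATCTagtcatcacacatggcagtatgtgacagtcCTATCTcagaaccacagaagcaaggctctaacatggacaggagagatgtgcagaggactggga
Gata1 (chrX:7971445-7971564, in an intron of Gata1): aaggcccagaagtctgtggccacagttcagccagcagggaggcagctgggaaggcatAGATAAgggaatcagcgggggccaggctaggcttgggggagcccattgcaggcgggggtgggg
Klf1 (chr8:84901234-84901353, intergenic): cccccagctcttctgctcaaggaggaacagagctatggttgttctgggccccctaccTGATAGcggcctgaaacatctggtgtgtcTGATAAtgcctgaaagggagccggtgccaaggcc
Sox6 (chr7:115831108-115831227, in an intron of Sox6): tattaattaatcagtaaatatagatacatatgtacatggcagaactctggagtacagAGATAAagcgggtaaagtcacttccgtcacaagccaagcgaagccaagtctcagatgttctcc
Car1 (chr3:14808493-14808612, intergenic): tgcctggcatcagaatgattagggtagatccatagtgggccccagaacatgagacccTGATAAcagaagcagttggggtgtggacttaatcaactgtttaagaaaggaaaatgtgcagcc
Ermap (chr4:119190658-119190777, intergenic): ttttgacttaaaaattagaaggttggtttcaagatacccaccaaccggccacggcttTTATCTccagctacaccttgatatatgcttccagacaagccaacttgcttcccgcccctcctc
Sptb (chr12:76670716-76670835, in an intron of Sptb): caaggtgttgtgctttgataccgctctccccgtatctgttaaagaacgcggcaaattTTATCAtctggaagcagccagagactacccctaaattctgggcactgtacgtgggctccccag

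At each of these 9 elements erythroid nuclei carried at least 5 times the share of ATAC counts of the other nuclei in both libraries. The 9 were picked from a longer list of loci, and not all of the rest reached that. The element of Kel gave ratios of 14.05 and 4.64, and that of Tspo2 3.66 and 5.90. Car1 and Klf1 are also rule genes. The element of Hba-a1, an alpha globin gene, lies at -37740 bases from the gene start inside the neighbouring gene Nprl3, the position of the known distal alpha globin enhancers. Per 1e6 ATAC counts it held 22.25 in erythroid and 1.89 in other nuclei of library 1, and 19.9 against 0.806 in library 2, a ratio of 13.5 over both (interval 9.49 to 18.7). The element of Hbb-bs, a beta globin gene, lies at -42884 bases and gave ratios of 9.65 and 18.2. The element of Alas2, the enzyme that opens erythroid heme synthesis, lies at 17442 bases and gave 24.3 and 26.0. The RNA of these 3 genes was low or not detected, as given below.

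Among the regulators, the Gata1 element at -3548 bases gave ratios of 16.0 and 5.24, the Klf1 element at -674 bases 13.1 and 10.1, and the Sox6 element at -6408 bases 14.9 and 17.9. Sox6 encodes a factor of definitive red cell maturation. The element before Car1, which encodes a carbonic anhydrase, gave 29.3 and 53.9, that before Ermap, an erythroid membrane protein, 27.9 and 43.4, and that in Sptb, the beta chain of spectrin, 17.1 and 27.1. The 9 elements were chosen for their ratios, which are a description.

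The values that chose the nuclei were spread over several genes. The rule sum had a median of 5 UMIs and a highest value of 25 in library 1, and a median of 4 and a highest value of 11 in library 2. UMIs of 2 or more rule genes were present in 115 of 126 and 43 of 48 erythroid nuclei. Slc25a21, a mitochondrial carrier of oxodicarboxylates, gave 53.0% and 52.4% of the rule UMIs, more than the other 8 genes together. Of nuclei carried by 1 rule gene alone, 10 of 11 and 5 of 5 were carried by Slc25a21. The erythroid nuclei held 65.5% of all rule UMIs of library 1 and 39.9% of those of library 2, and the rest lay in nuclei with sums of 1 or 2.

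For each rule gene, the nuclei were chosen again with the other 8 genes, and the left-out gene was then compared. All 9 genes were chosen with earlier results of these data known. These ratios are therefore a description and no independent check of the set. Without Slc25a21 the choice held 61 nuclei in library 1 and 18 in library 2. Levels are UMIs per 1e6 UMIs of all genes (CPM). Kel, the Kell blood group protein, had 144 CPM in nuclei chosen by the other 8 genes against 3.49 in the rest of library 1, a ratio of 41.1 (interval 25.4 to 66.8), and 56.2 (26.0 to 115) in library 2. Ank1, the ankyrin that ties the membrane to its skeleton, gave 63.4 and 50.4, Slc25a21 51.6 and 37.0, Aqp1, a water channel, 32.2 and 22.7, and Car1 29.8 and 30.7. Rhag, the Rh-associated glycoprotein, gave 58.3 and 19.5. Gna14, a G protein subunit, gave 10.7 and 7.52, the lowest in library 2. Klf1 gave 9.61 (2.32 to 30.2) and 8.85 (1.02 to 35.4) on 4 and 2 UMIs. Epor, the erythropoietin receptor, gave 60.4 (21.9 to 181) on 12 UMIs in library 1, and 1 UMI in library 2 left its ratio undetermined (0.313 to 104).

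Depth moved with the choice, and its part was not tested. Erythroid nuclei had medians of 2079 UMIs and 822 genes in library 1 and 1936 UMIs and 588 genes in library 2, against 1633 and 632, and 1514 and 409, in the other nuclei. Their median ATAC counts, which the rule did not use, were 18346 and 16842 against 19547 and 16281. Genes at the ribosomal DNA locus took 40.8% and 51.4% of erythroid UMIs and 43.1% and 53.2% of the rest. In all, the erythroid nuclei held 283932 UMIs in library 1 and 111977 in library 2, so the second library sets the precision. Of barcode sequences, 146 occurred in both libraries, 200 kept nuclei and 4 erythroid nuclei carried one, and no sequence was erythroid in both.

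Chromatin was read with peaks chosen in the nuclei of the other library. Peaks at least 4-fold higher in the erythroid nuclei of 1 library were chosen, and the share of ATAC counts in them was read per nucleus in the other library. With the 4277 peaks chosen in library 1, the median erythroid nucleus of library 2 had 5.35% of its counts in them (range 1.39 to 7.37), against 0.615% in the other nuclei. With the 1037 peaks chosen in library 2, the medians in library 1 were 1.88% and 0.295%. The nuclei of the megakaryocyte rule (77 and 50 nuclei) came next, at 0.984% in library 1 and 2.29% in library 2. Nuclei with 3 or more UMIs of basophil and mast markers (26 and 17) stood at 0.698% and 1.35%, and those with 3 or more of the stem markers Mecom, Hlf, Prdm16 and Myct1 (106 and 24) at 0.476% and 0.930%. No nucleus of these 3 sets reached the erythroid median of its library.

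Chromatin shares differed little across the threshold of 3 UMIs. In library 2, nuclei with a rule sum of 2, just outside, had a median share of 4.96% (35 nuclei), and those with 3, just inside, 4.92% (21 nuclei). In library 1 the medians were 1.46% (80 nuclei) and 1.57% (33 nuclei). The larger step lay lower, at 0.791% for 1 UMI and 0.611% for 0 UMIs in library 2, and at 0.490% and 0.290% in library 1. Above the threshold the share went on rising in library 1, to 1.87% at 4 to 5 UMIs, 2.03% at 6 to 9 and 2.21% at 10 or more. Nuclei outside the rule that reached the erythroid median numbered 40 in library 1, 17 of them with no rule UMI, and 35 in library 2, 11 of them with none. The 40 nuclei had a median of 1150 UMIs and the 35 a median of 1702.

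**Figure D1:**
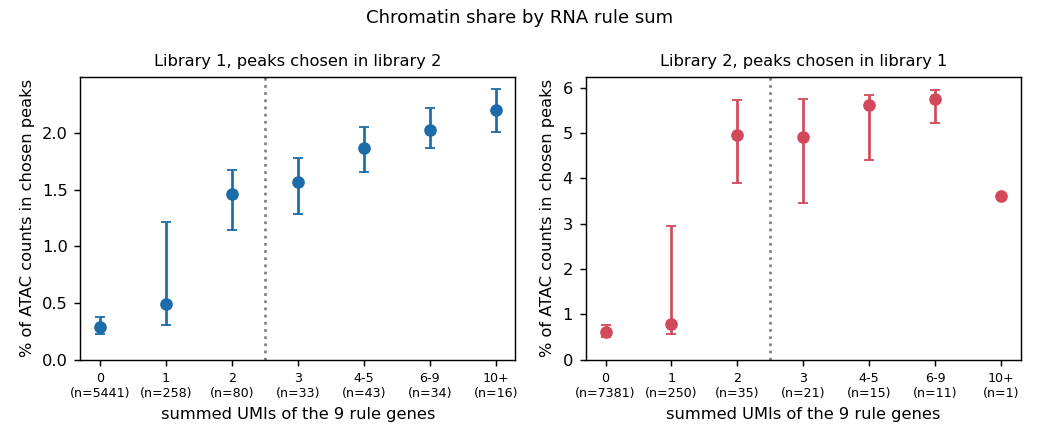
Share of ATAC counts (percent) in peaks chosen in the erythroid nuclei of the other library, by the summed UMIs of the 9 rule genes. Points are medians over nuclei, bars run from the 25th to the 75th percentile, n is the number of nuclei, and the dotted line is the threshold of 3 UMIs. Nuclei with 2 UMIs, at 1.46% and 4.96%, lie beside those with 3, at 1.57% and 4.92%.

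Levels of markers outside the rule differed along the rule sum. The summed membrane genes stood at 893 CPM in nuclei of library 1 with no rule UMI, 1185 with 2, 1211 with 3 and 2567 with 10 or more. The heme genes stood at 150, 161, 192 and 676 CPM in the same bins, and the granule genes at 2016, 1295, 975 and 541 CPM. In library 2 the membrane genes went from 595 CPM without a rule UMI to 2020 CPM at 6 to 9, and the granule genes from 3206 to 1046 CPM. The heme genes of library 2 stood at 124 CPM with none, 63.1 with 1, 263 with 2, 260.3 with 3 and 433 with 6 to 9 rule UMIs. The single nucleus with 10 or more had 974 CPM of membrane genes and no heme UMI. Median depth rose with the bins too, from 1633 UMIs with none to 2853 with 10 or more in library 1; its part was not tested.

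Over the whole table, a gene was counted as higher or lower where its CPM in erythroid nuclei differed 2-fold or more from that of the other nuclei of the same library, in both libraries. Of 586 genes whose rate over all kept nuclei would have given 10 or more UMIs in the erythroid nuclei of each library, 3 were higher (0.512%) and 33 lower (5.63%). The higher genes were Herc1, a giant ubiquitin ligase (2.26 and 2.94), Gas5, a host of small nucleolar RNAs (2.22 and 2.13), and Asap1, an ARF GTPase activator (2.03 and 2.60). Nearly all erythroid genes fall under that minimum. A minimum of 3 expected UMIs over both libraries, chosen after the data were seen, left 7632 genes, of which 302 were higher (3.96%) and 684 lower (8.96%), with a median ratio of 1.06. Of the 655 genes higher in library 1, which were 8.58% of those tested, 46.1% were also higher in library 2, against 15.6% of all genes tested. This minimum includes the erythroid counts of both libraries, so genes high in either pass it more easily, and the share is a description. Of the 302 higher genes, 293 had 3 UMIs expected from the other nuclei alone.

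Regulators of the erythroid program were above 1 in both libraries at 11 of 16 genes, against 33.9% of all 7632 genes. Of 19 listed factors 16 met the lower minimum, 6 were higher in both libraries (against 3.96% of all genes) and 1, Lyl1, was lower, with a median ratio of 1.77. Nfia, a nuclear factor I protein that favours the erythroid over the granulocytic fate, had the most UMIs of the 6, with 451 CPM against 34.3 in library 1 and 223 against 17.4 in library 2, ratios of 13.2 (10.65 to 16.2) and 12.8 (8.13 to 19.5). Sox6 stood at 176 against 29.5 CPM and 116 against 12.4, and Tal1 at 63.4 against 13.3 and 35.7 against 9.66. Zfpm1 gave ratios of 4.18 and 5.55, Ldb1 3.10 and 4.90, and the cell cycle partner Tfdp2 2.14 and 2.89. The intervals of library 2 reach down to 0.992 for Tal1 and 0.928 for Tfdp2.

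Gata1 itself was sparse, with 8 UMIs (28.2 CPM against 2.70) in library 1 and 4 (35.7 against 1.61) in library 2. Its ratios were 10.4 (4.10 to 23.6) and 22.2 (5.52 to 66.3), and both intervals lie above 1, although the gene fell under the minimum. Hemgn, which encodes the erythroid nuclear protein hemogen, gave 12.2 and 18.5 on 9 and 4 UMIs. Gata2, which precedes Gata1, was higher too, at 141 against 29.9 CPM (4.72, 3.30 to 6.58) and 44.7 against 16.7 (2.68, 0.861 to 6.36). Myb, which sustains progenitor proliferation, stood at 828 against 432 CPM and 411 against 243, below the 2-fold line in both libraries. Lyl1, a relative of Tal1, had 3 UMIs and 0 UMIs. RNA of both Gata1 and Gata2 was thus present in the set.

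Of 15 heme genes 9 met the minimum, 5 were higher and 1 lower, against 3.96% and 8.96% of all genes, with a median ratio of 3.498. Cpox and Ppox, enzymes of the late mitochondrial steps, gave 5.22 (2.88 to 8.87) and 6.46 (2.32 to 14.6), and 4.98 and 4.62. Fech, which inserts the iron, gave 3.21 and 4.62, Alad, the second enzyme of the pathway, 2.42 and 6.10, and Abcb10, a mitochondrial transporter, 3.82 and 3.23. Flvcr1, a heme exporter, was the lower gene, with 1 UMI and 0 UMIs. Alas1, the housekeeping form of the first enzyme, had 17.6 against 47.4 CPM in library 1 and 44.7 against 46.5 in library 2, while Alas2 had no UMI in any erythroid nucleus and 2 in all the others.

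Tspo2, an erythroid porphyrin and cholesterol transporter under the minimum, had 45.8 against 2.20 CPM and 35.7 against 1.45, ratios of 20.8 and 24.7. Of 12 iron genes with 8 past the minimum, only Steap3, the ferrireductase of the transferrin cycle, was higher (3.24 and 4.11, against 3.96% of all genes), and the median of 1.08 was near the 1.06 of all genes. Tfr2, the second transferrin receptor and a partner of Epor, fell under the minimum with 95.1 against 6.59 CPM and 44.7 against 2.82. Its ratios were 14.4 (8.86 to 22.9) and 15.9 (4.85 to 40.6). Tfrc, the transferrin receptor CD71, stood at 106 against 84.5 CPM in library 1, with ratios of 1.25 (0.838 to 1.80) and 1.93 (1.05 to 3.26). The ferritin gene Fth1 stood at 0.959 (0.545 to 1.57) and 1.10 (0.401 to 2.40).

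Globin RNA was present at a low level. The summed globin genes stood at 173 CPM against 8.79 in library 1 (19.6-fold, 13.5 to 28.1) and at 179 against 4.43 in library 2 (40.4-fold, 22.9 to 68.4), on 49 and 20 UMIs. Hba-a1 held 17 and 7 of them, Hba-a2 14 and 8, Hbb-bs 14 and 3, and Hbb-bt 4 and 2. Hba-a1 and Hba-a2 are near-identical copies, so their split is uncertain. The embryonic genes Hbb-y, Hbb-bh1 and Hba-x had no UMI, and no globin gene met the minimum.

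Genes of the membrane and its skeleton were mixed. Of 25 listed genes outside the rule 11 met the minimum and 2 were higher, Car2 and Epb41, against 3.96% of all genes, with a median ratio of 0.908, 4 genes above 1 and 3 below 1 in both libraries. Car2, the second red cell carbonic anhydrase, had 518 against 49.7 CPM and 366 against 29.8, ratios of 10.4 (8.62 to 12.6) and 12.3 (8.68 to 17.01). Epb41, protein 4.1 of the skeleton, gave 2.60 and 2.40. The genes under the minimum included Slc4a1, the band 3 anion exchanger, with 7 and 4 UMIs and ratios of 82.3 (18.8 to 493) and 55.5 (12.2 to 207).

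Add2, the beta adducin of the skeleton, gave 70.5 and 97.1, and Sptb 17.6 and 45.7. Tspan33, a tetraspanin, gave 15.9 and 43.2, and Ermap 53.9 and 18.5. These ratios rest on 2 to 26 UMIs each, so their order is not resolved. Epb42, protein 4.2, had no UMI in erythroid nuclei. Cd44, an adhesion receptor that declines as erythroblasts mature, stood at 0.633 (0.457 to 0.856) and 0.844 (0.481 to 1.37), and Cd47, the marker that protects red cells from phagocytosis, at 0.880 and 1.02.

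Of 13 genes of the erythropoietin pathway 9 met the minimum. None was higher in both libraries and 1, Bcl2l1, was lower, on 1 UMI and 0 UMIs. These counts are near the 3.96% and 8.96% of all genes and are no result about the pathway. The median ratio was 1.72, against 1.06 over all genes, with 5 of the 9 above 1 and 3 below 1 in both libraries. The summed genes gave 1.35 (1.22 to 1.49) and 1.31 (1.05 to 1.62). Kit, the receptor of stem cell factor by which the cells were sorted, had 317 against 133 CPM (2.38, 1.90 to 2.95) and 143 against 72.8 (1.96, 1.12 to 3.21). Jak2 gave 1.70 (1.11 to 2.5) and 5.15 (2.85 to 8.63), Stat5a 2.83 and 1.77, Stat5b 1.72 and 2.18, and Igf1r 1.72 and 1.68. Pim1, a kinase that STAT5 induces, stood at 0.480 and 0.585. Cish and Socs3, feedback inhibitors that STAT5 induces, had no UMI, with 0.541 and 0.418 expected from the other nuclei.

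Of 14 genes of the late erythroblast 4 met the minimum, none was higher and 2, Xpo7 and Rnf10, were lower at 0.454 and 0.498, and 0.490 and 0.449 (against 8.96% of all genes). Alas2 and Trim58, a ubiquitin ligase of enucleation, had no UMI, but at the rate of the other nuclei only 0.0567 and 0.376 UMIs were expected, so that neither 0 bears on the stage. Of 19 genes of early erythroid progenitors, 8 met the minimum, with a median ratio of 2.78. Of these, 4 were higher (Apoe, Zfpm1, Gata2 and Eng) and 1, Cd34, was lower, against 3.96% and 8.96% of all genes. Zfpm1 was also counted among the factors above, and Gata2 among the stem and myeloid factors below, so the lists are not separate. Apoe gave 6.22 (3.72 to 9.95) and 3.96 (0.801 to 11.99). Samd14, a gene with GATA-bound enhancers that promotes signalling of Kit, gave 15.6 and 3.26, and Blvrb, biliverdin reductase B, 6.41 and 9.86. Cd34, the stem and progenitor sialomucin, had 24.6 against 67.7 CPM in library 1 and 0 against 59.2 in library 2. The label of erythroid progenitors was thus checked only in part against genes outside the rule. Gata1, Tfr2, Car2 and globin RNA stood above the other nuclei in both libraries, but the lists were mixed. Median ratios were 1.77 for the factors, 3.498 for heme, 2.78 for early genes and 1.72 for the erythropoietin pathway. They were 0.9505 for the late erythroblast list, 0.908 for the membrane list of Car2 and 1.08 for the iron list of Tfr2. The membrane and iron medians cover only 11 of 25 and 8 of 12 genes. The summed membrane genes, Car2 among them, gave 1.98 (1.81 to 2.17) and 2.21 (1.86 to 2.60). The summed iron genes gave 1.42 (1.21 to 1.66) and 1.29 (0.931 to 1.74). In library 1 Gata1 stood at 28.2 CPM here and 29.8 CPM in nuclei of the megakaryocyte rule. There it does not set the label apart from that lineage.

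**Figure D2:**
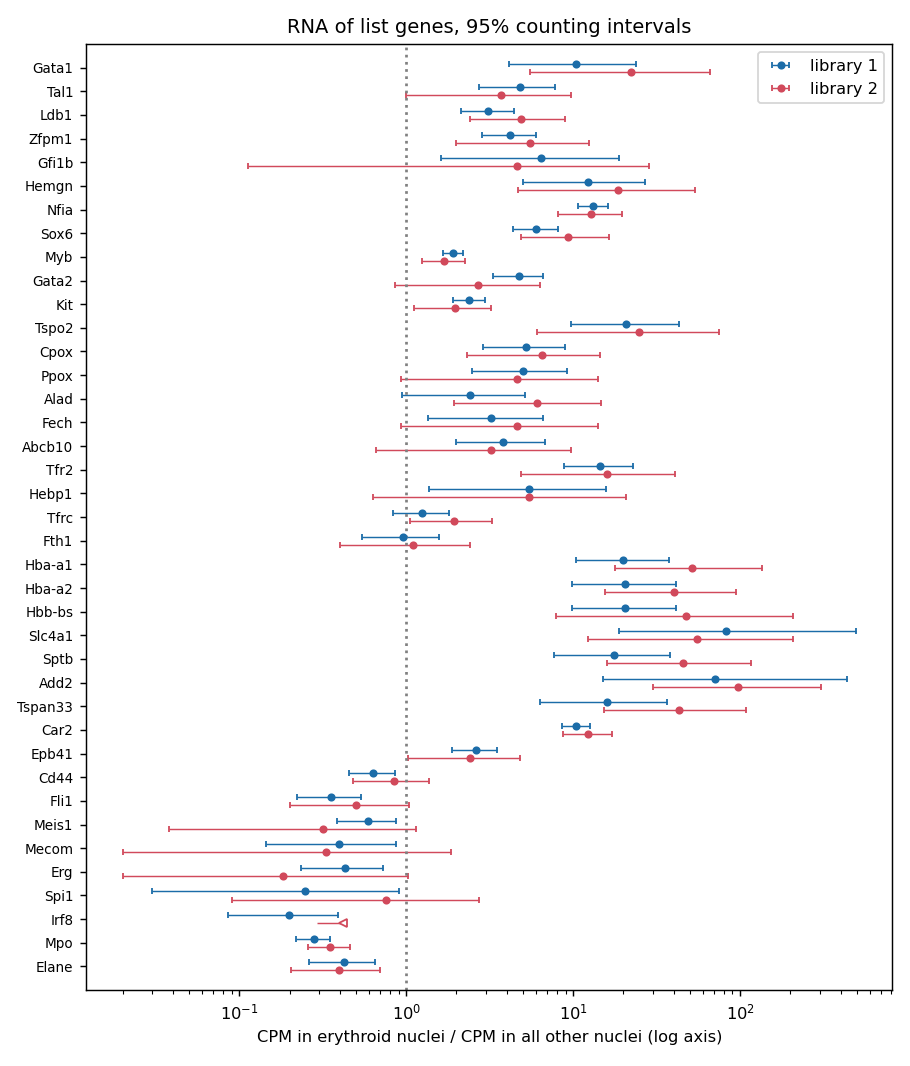
Ratio of CPM in erythroid nuclei to CPM in all other nuclei (log axis) for genes of the lists, by library, with exact 95% counting intervals. Open triangles mark the upper bound of a gene without UMIs, and the lowest bounds of Mecom and Erg are shortened to stay on the axis. Points of Gata1, Nfia, Tspo2, Tfr2, Hba-a1 and Slc4a1 lie right of the dotted line at 1, and those of Cd44, Fli1, Irf8, Mpo and Elane lie left of it.

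Genes of other lineages were mostly but not all below the other nuclei. Of 10 stem and myeloid factors, 9 met the minimum, 4 were lower and 1, Gata2, was higher, against 8.96% and 3.96% of all genes. The lower ones were Erg, Mecom, Hlf and Irf8, the last a factor of monocytes and dendritic cells, with 28.2 against 142 CPM and 0 against 79.2. Fli1, the ETS factor that drives megakaryocytes, stood at 77.5 against 219 CPM in library 1 (0.353, 0.221 to 0.536) and at a ratio of 0.5002 (0.201 to 1.03) in library 2. Runx1, shared by all definitive lineages, stood at 0.733 and 0.739. Spi1, the myeloid antagonist of GATA1, had 2 UMIs in each library. The 8 stem markers summed to 1.06 (0.793 to 1.38) and 1.45 (0.771 to 2.498) times the others' level, with 3 of 5 genes past the minimum lower and 1 higher, against the same shares. The higher one was Mllt3, a regulator of stem cell maintenance, at 144 against 69.4 CPM and 98.2 against 24.9. The 10 basophil and mast markers summed to 1.45 (0.949 to 2.13) and 0.922 (0.298 to 2.16), and of them Il1rl1, the receptor of interleukin 33, gave 12.02 and 10.8 on 15 and 4 UMIs.

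All 10 granule genes were below 1 in both libraries and 6 were lower by 2-fold, against 8.96% of all genes, with a median ratio of 0.387. Mpo, myeloperoxidase, had 250 against 898 CPM (0.278, 0.217 to 0.352) and 438 against 1258 (0.348, 0.257 to 0.460), and Elane, neutrophil elastase, 0.426 and 0.398. Granule UMIs numbered 3 or more in 27 of 126 erythroid nuclei (21.4%) and 22 of 48 (45.8%), against 42.2% and 59.5% of the other nuclei, and whether this was free RNA was not tested. Of 10 B lineage genes 7 were lower, against the same 8.96%, with Ebf1, the founding B lineage factor, at 0.0952 and 0.0605, and only 1 erythroid nucleus had 3 or more UMIs of them. Of the 15 further megakaryocyte genes 12 had no UMI, Pf4 among them, but only 2 of the 15 met the minimum, so most of these zeros say little. Their summed ratio was 0.695 (0.448 to 1.03) in library 1 and 0 in library 2 (upper bound 0.533). Macrophage markers, listed because erythroblasts mature on macrophages, held 0 UMIs and 2 UMIs. The intervals of their ratios, 0 to 1.91 and 0.223 to 6.89, include 1.

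Proliferation and interferon lists had summed levels within 1.5 times those of the other nuclei. The 44 S phase genes summed to 0.976 (0.911 to 1.04) and 1.36 (1.22 to 1.53) times the level of the other nuclei, and the 52 G2/M genes to 1.16 (1.10 to 1.22) and 1.46 (1.33 to 1.61). The type I interferon list, of interest in this study, gave 1.29 (1.09 to 1.51) and 0.966 (0.660 to 1.37). Of its 13 genes past the minimum 1 was higher in both and none lower, which is near the 3.96% of all genes.

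Genes outside the lists were named after their values were seen, by their ratio among genes with 15 or more UMIs in erythroid nuclei. A gene rare elsewhere passes that filter only where it is high here, so these ratios are a description. Named genes included the large receptor-like gene Pkhd1l1 at 97.0 and 92.5 (11 and 5 UMIs) and the nonmuscle myosin Myh10 at 34.0 and 40.0. The endocytic Reps2 gave 35.3 and 26.4, and the lectin Zg16 27.3 and 22.5. For Pkhd1l1, Myh10 and Reps2 the other nuclei led to 0.168, 0.991 and 0.842 expected UMIs over both libraries. Abcb4, a phospholipid transporter, had 303 against 12.8 CPM and 107 against 5.63, ratios of 23.7 and 19.0. Mfsd2b, the exporter of sphingosine 1-phosphate from red cells, gave 12.01 and 6.31.

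The same genes were read in the nearest lineages. For Gata1, Tal1, Zfpm1 and Gata2 the intervals of erythroid nuclei and of those of the megakaryocyte rule overlapped in both libraries, with Gata1 at 28.2 and 29.8 CPM and Zfpm1 at 116 and 190 CPM in library 1. Such an overlap does not show that the levels were alike, since the Gata1 interval of the megakaryocyte nuclei in library 2 rests on 1 UMI (10.4 CPM, 0.264 to 58.2), and the difference was not tested. Nfia at 451 against 83.3 CPM in library 1 and 223 against 41.8 in library 2, and Car2 at 518 against 190 and 366 against 104, were higher in the erythroid nuclei with intervals that do not overlap. Fli1 went the other way, at 678 and 428 CPM in the megakaryocyte nuclei, as did Meis1, a homeobox factor of stem cells and megakaryocytes, at 934 and 313 CPM against 91.6 and 17.9. Gata2 was highest in the basophil and mast nuclei, at 475.5 CPM in library 1 and 114 in library 2, the second with an interval (23.6 to 334) that spans the erythroid 44.7.

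**Figure D3:**
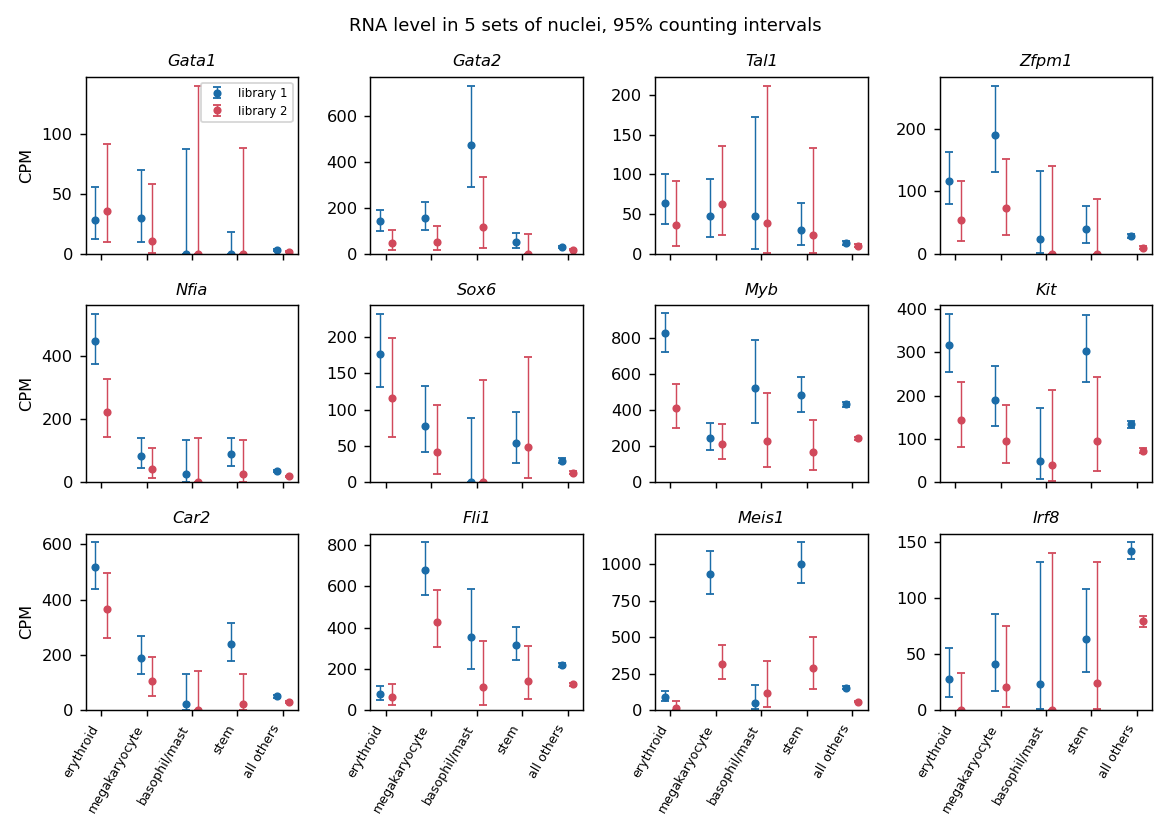
RNA level (CPM, linear axes from 0) of 12 genes in erythroid nuclei, in nuclei with megakaryocyte, basophil and mast, or stem markers, and in all nuclei that are not erythroid, by library, with exact 95% counting intervals. Nfia, Sox6 and Car2 are highest in the erythroid nuclei, Fli1 in the megakaryocyte nuclei, and Gata2 in the basophil and mast nuclei.

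Promoter chromatin, which the rule did not use, stood apart at some of these genes. Counts were summed over peaks within 1 kb of the first or last annotated start of each gene. Of 18856 promoters with 3 or more expected pairs of counts, 228 were higher in both libraries (1.21%) and 1213 lower (6.43%), with a median ratio of 1.10. Among the rule genes, 4 of 7 past the minimum were higher. Kel gave 13.2 and 17.97, Slc25a21 4.29 and 2.90, Aqp1 2.82 and 3.89, and Epor 3.28 and 3.63. The promoters of Car1 (29.3 and 53.9) and Rhag (10.0 and 14.6) also stood above 1 in both libraries, but fell under the minimum.

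Not every rule gene had a promoter that stood apart. Ank1 gave 0.935 and 1.55 (1.13 over both, 0.633 to 1.86) and Klf1 1.59 and 1.21, although their RNA had ratios from 8.85 to 63.4, and the Klf1 signal lay in the element at -674 bases shown above, whose peak is within the same 1 kb. Of the 25 membrane genes, all past the minimum, 9 promoters were higher and none lower, against 1.21% and 6.43% of all promoters. Ermap gave 20.6 and 28.2, Rhd, the Rh antigen gene, 10.1 and 10.1, and Slc4a1 3.66 and 6.82. Epb42 gave 7.02 and 9.05 (7.44 over both, 4.94 to 10.8), while its RNA had 0 UMIs in erythroid nuclei and 1 in all others.

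Of the promoters of 17 factors past the minimum 1, Tal1, was higher, against 1.21% of all promoters, at 2.10 and 2.18, while Zfpm1 gave 1.24 and 1.29 and Nfia 1.79 and 0.953. The Gata1 promoter gave 9.71 and 10.3 (9.84 over both, 5.83 to 15.5) but fell under the minimum. Tspo2 gave 8.89 and 10.9. The promoters of the tight junction gene Cldn13, at 13.01 and 22.4, and of Hbb-bs, at 7.48 and 18.6, also fell under it. Of 9 granule promoters 6 were lower and none higher, against 6.43% and 1.21% of all promoters, with a median of 0.313, and the promoter of Mpo gave 0.555 and 0.192. In the nearest lineages, 1 of 12 further megakaryocyte, 1 of 8 stem and 1 of 6 basophil and mast promoters were higher, against the same 1.21%. They were Gp1ba (6.63 and 5.07), Myct1 (2.40 and 2.20) and Il1rl1 (2.17 and 6.33). Of the basophil and mast promoters 1 was lower. That of Cpa3, under the minimum, gave 3.93 (1.40 to 8.98) and 4.94 (0.9985 to 14.9).

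In single peaks, 7 of 9427 with 10 or more expected pairs in each library were higher (0.0743%) and 386 lower (4.09%). Of the higher peaks, 1 lies in an intron of Tal1 at 478 bases from a start (2.10 and 2.18), 1 at Zbtb7a, a globin repressor, and 1 in Fam117a (2.85 and 2.97). With 3 expected pairs over both libraries, 3657 of 104427 were higher (3.5%) and 22604 lower (21.6%). A count of 0 in a library meets the lower line there, also where its interval includes 1. One such peak had 0 counts in both libraries, with upper bounds of 1.08 and 4.61. The median peak ratio was 0.779, so the bulk of weak peaks lay below 1 and ratios should be read against that level. Peaks at promoters took 51.8% of erythroid ATAC counts and 46.0% of the others' in library 1, and 50.2% and 44.6% in library 2. Peaks higher in library 1 were 7.44% of those tested, and 47.1% of them were higher in library 2, against 9.78% of all. The minimum there includes the erythroid counts of both libraries, so peaks high in either pass it more easily. The share was not read with a minimum set by the other nuclei alone and is a description.

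Higher peaks were more frequent near listed erythroid genes than over all peaks. Within 100 kb of their starts, 203 of 2823 peaks were higher (7.19%, against 3.5% of all peaks) and 370 lower (13.1%, against 21.6%). At least 1 higher peak lay near 109 of 131 genes, against 49.4% of the 7632 genes tested for RNA. The 131 genes include the 9 rule genes whose RNA chose the nuclei, and neighbouring genes share peaks. Of all 3657 higher peaks, 3323 had 3 pairs expected from the other nuclei alone. The counts near genes use the minimum with the erythroid counts included and are a description. Of the 302 genes with higher RNA, 196 had a higher peak within 100 kb (64.9%), against 49.4% of all genes tested and 40.5% of the lower genes. Alpha globin had 2 more elements beside the one shown, at -32479 bases (8.001 and 7.08) and -27171 bases (9.45 and 8.17). Alas2 had a second at 2376 bases (22.4 and 13.8), while its own promoter held 1.5 pairs. These further elements fell under the minimum, with 2.11, 1.53 and 1.28 pairs expected from the other nuclei, and are not among the counts above.

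**Figure D4:**
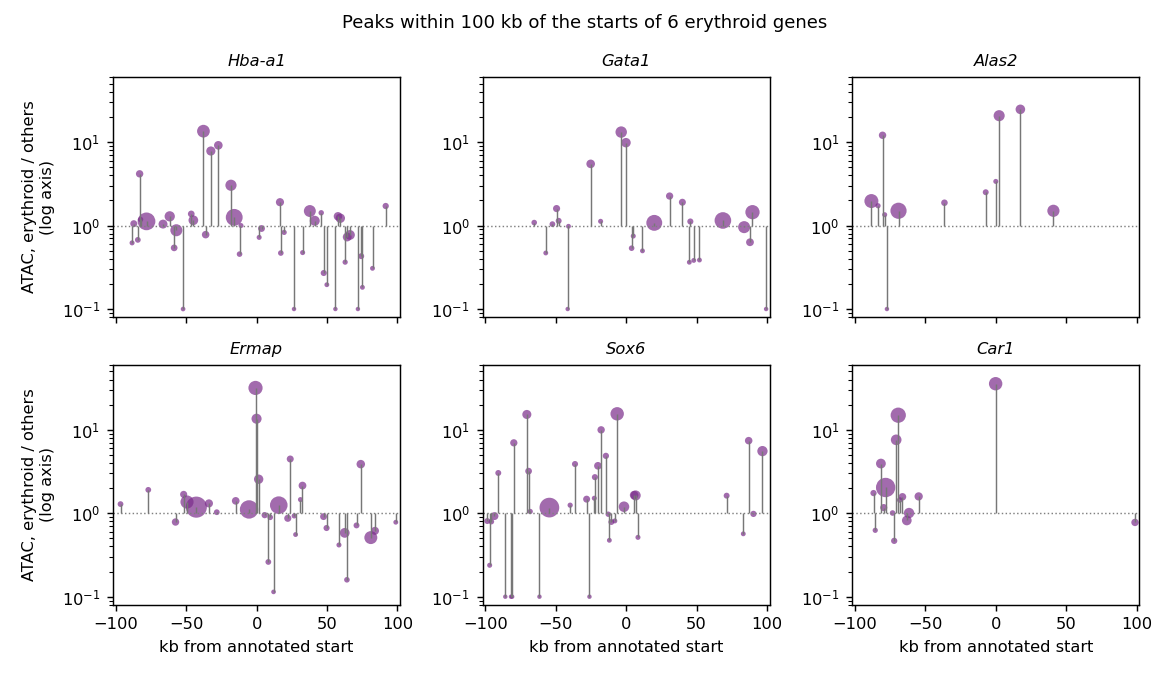
ATAC peaks within 100 kb of the starts of 6 erythroid genes, by distance in kb (negative values are upstream), with the ratio of the share of counts in erythroid nuclei to that in the other nuclei over both libraries (log axis). Dot size grows with the counts in erythroid nuclei, and the lowest dots stand for peaks at or below the lowest labelled ratio. The tallest point of Hba-a1, at -37.7 kb, has a ratio of 13.5, and that of Ermap, just before its start, 31.7.

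The same elements were read in the megakaryocyte nuclei, where counts were sparse. The ratio over the nuclei outside the erythroid set was 1.10 (0.134 to 3.98) for megakaryocyte nuclei at the Hba-a1 element, 0 at the Alas2 element of 17442 bases (upper bound 6.89), 1.90 (0.230 to 6.84) at that of Ermap and 0.456 at that of Sptb. It was 7.61 (3.93 to 13.3) at the Gata1 element, 5.30 (3.38 to 7.91) at 39595 bases within Zfpm1 and 6.03 (4.11 to 8.54) at 2404 bases within Samd14. The erythroid values at the elements of Zfpm1 and Samd14 were 9.55 and 10.4. The basophil and mast nuclei had 5.40 (1.11 to 15.8) at the Gata1 element and 4.14 (1.60 to 8.76) at the Zfpm1 element, and stem nuclei had 0.692 (0.0175 to 3.85) and 0.971 (0.265 to 2.49) there. The elements of Gata1, Zfpm1 and Samd14 were thus also above 1 in megakaryocyte nuclei, with intervals that exclude it, while at those of Hba-a1, Alas2, Ermap and Sptb the megakaryocyte intervals include 1. These intervals are wide and overlap some of the former, and the difference between elements was not tested.

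GATA letters were frequent in the higher peaks. AGATAA occurred on either strand in the central 400 bases of 42.8% of 3655 higher peaks with sequence (41.1 to 44.4), against 15.8% of all peaks tested and 14.1% of the lower ones. Any of the 4 GATA cores shown above occurred in 75.05%, 41.2% and 41.2%. Outside promoters the share with AGATAA went from 14.5% of 15869 peaks with ratios under 0.25 to 31.1% at ratios of 2 to 4, 52.0% at 4 to 8 and 71.1% of 422 peaks at 8 or more (66.5 to 75.4). The minimum behind these shares includes the erythroid counts, so peaks with large ratios pass it more easily. With 3 pairs expected from the other nuclei alone, the shares were 31.1% of 4507 peaks at ratios of 2 to 4, 52.3% of 909 at 4 to 8 and 74.3% of 276 at 8 or more (68.7 to 79.3), and 41.8% of all higher peaks held it. The median GC content was 49.0% in the higher, 48.0% in the lower and 49.8% in all tested peaks.

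The letters of other factors moved less or the other way. GGAAGT, bound by ETS factors, occurred in 30.6% of the higher, 42.4% of the tested and 54.8% of the lower peaks, and TTNNGCAA, bound by CEBP factors, in 14.8%, 17.4% and 23.9%. TGTGGT, bound by RUNX factors, occurred in 40.4%, 34.9% and 41.3%, and CAGCTG, an E-box, in 29.9%, 25.7% and 27.5%. CCNCNCC, a loose form of the KLF site, gave 67.5%, 69.1% and 63.1%. Among the 7 peaks of the stricter minimum, 1 held AGATAA (14.3%, 0.361 to 57.9), too few to describe.

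**Figure D5:**
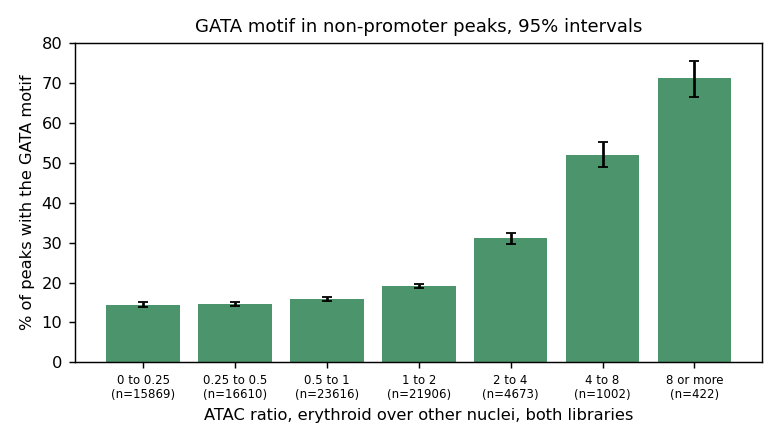
Share of peaks outside promoters that hold the GATA motif in their central 400 bases (percent, bars from 0, with exact 95% intervals), by the ratio of ATAC counts in erythroid nuclei over the other nuclei, n being the number of peaks. The share is near 15% below a ratio of 1 and reaches 71.1% at 8 or more.

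Between the libraries, erythroid nuclei were compared at the 271 genes with 20 or more UMIs in each. Levels in library 2 over library 1 were lowest for Foxn3, a forkhead factor, at 188 against 666 CPM (0.282), Pan3 (0.371), Foxp1 (0.420), Pde4d (0.423) and Cdk6, a G1 kinase (0.428). They were highest, among those given here, for Smc1a (2.29), Cdk8 (2.19), Camk1d (2.19) and Prtn3 (1.84). The same ratio in the other nuclei was 0.323 for Foxn3, 0.458 for Pan3, 0.336 for Foxp1, 0.548 for Cdk6 and 1.95 for Camk1d, in the same direction, whereas Smc1a stood at 0.705 there. The median over these genes was 0.803. What separates the libraries, including any difference of group, cannot be told apart here.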

How the data were processed

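Nuclei of sorted HSPCs were profiled by 10x multiome sequencing. Per the submitters' processing notes, the authors used Cell Ranger ARC 2.0.0, Seurat 4.0.3 and Signac 1.3.0 with GRCm38 (mm10). The deposited matrix holds raw counts without normalization, with 32272 genes (UMI counts), 174339 peaks (ATAC counts) and 18961 barcodes. Of nonzero peak values, 82.5% were even, so ATAC intervals were computed on halved counts, called pairs.

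The members, gene lists and comparisons were chosen with earlier results of these data known. Counts were summed over the nuclei of a set within a library and divided by the total of all genes or all peaks. Ratios carry exact intervals of 2 Poisson rates, and shares carry Clopper-Pearson intervals (scipy 1.17.1, numpy 2.4.6, pandas 2.3.3, Python 3.11.15). Called means past 2-fold in both libraries, with no test. The 14 genes of the rule were left out of counts over genes. Genes are deposited as the span from their first to their last transcript start, so promoters reach 1 kb around either, and distances run to the nearer one. Exons and introns came from GENCODE M21, which held 99.6% of the gene IDs, and sequence from the GRCm38 reference read with pysam 0.24.0. Median ratios are taken over both libraries, as counts in erythroid nuclei over those expected from the other nuclei.

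Named genes were the rule genes, up to 8 of the highest and 4 of the lowest of each list, the extremes over all tested genes and peaks, peaks within 100 kb of erythroid list genes, and the 5 highest and 5 lowest genes between the libraries. Further genes and peaks, among them the list genes under the minimum, were named after their values were seen. Doublets were not removed: Scrublet scores (scanpy 1.11.5) served as an alternative, and 9 of 126 and 5 of 48 erythroid nuclei lay in the top 8% of their library. Scripts were tested on simulated data. Values of some genes that the rule names are not reported here.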

Additional observations from a re-analysis of the deposited data

How the results depend on the processing

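No paired analysis was possible because each group held 1 sample and no label tied a barcode suffix to a sample. The share of erythroid nuclei followed the filter and the rule. In library 1 it was 2.81% with a minimum of 500 genes, 1.08% with a rule sum of 5 or more, 1.03% without Slc25a21 and 1.21% after thinning to 1000 UMIs, and in library 2 it was 1.61%, 0.233%, 0.233% and 0.350%. Members numbered 82, 79 and 82 under the last 3, and the share was lower in library 2 each time. Thinning to 400 UMIs outside the ribosomal DNA locus, chosen after the data were seen, left 42 members, 0.606% and 0.128%.

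With fewer members, fewer features reach 10 expected counts, which bears on the counts below. Genes higher in both libraries were 1 with 500 genes, 1 with ATAC limits on halved counts and 0 with the higher sum, without Slc25a21 or after thinning to 1000 UMIs, against 649 with no minimum beyond 1 count and 302 with 3 expected over both libraries, which was chosen after the data were seen. Genes lower were 17 with the higher sum, 9 without Slc25a21, 12 after thinning, 184 with no minimum and 684 with 3 expected. Peaks higher were 2 with 500 genes, 17 on halved limits, 0 with the higher sum, 1 without Slc25a21, 1 after thinning, 3 without the top 8% of doublet scores, 2 when scaled by the median ratio, 9235 with no minimum and 3657 with 3 expected. Peaks lower were 82 with 500 genes, 1 with the higher sum, 0 without Slc25a21, 0 after thinning, 150 without the top doublet scores, 5290 with no minimum and 22604 with 3 expected. The share of higher peaks with AGATAA was 0% with 500 genes, without Slc25a21, after thinning and without the top doublet scores, on 1 to 3 peaks, and the sum of 5 or more left no higher peak to give a value. With the 3 expected from the other nuclei alone, also chosen after the data were seen, genes higher were 293 and lower 695, and peaks higher 3323 and lower 22828. For the changes under the median scaling, the halved limits and the doublet scores, the cause was not tested.

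The other 33 values, those without the megakaryocyte limit, without shared barcodes, against nuclei with no rule UMI or with promoters scaled apart among them, stayed within 1.5 times the count or within the interval. The megakaryocyte limit removed no nucleus, so the values without it could not move and say nothing of stability. The share of higher peaks with AGATAA, 14.3% on 7 peaks, has an interval of 0.361 to 57.9 that nearly any value would meet, so its 6 further values, from 5.88% on the halved limits to 42.8% with 3 expected, say nothing of its stability. Depth limits library 2 most: its 48 nuclei leave many list genes at 1 to 5 UMIs, and intervals are wide there. The libraries and the groups cannot be told apart.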
